A study of Mus musculus with 8 samples.

Results

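The NRF2 antioxidant genes are 8 mouse genes chosen by name: Nfe2l2, Nqo1, Hmox1, Gclc, Gclm, Srxn1, Txnrd1 and Slc7a11. A gene was taken where its symbol in the deposited table equals one of these names. Of the 8, 7 were found among the 14861 genes of the table. Slc7a11, which encodes a cystine importer, was not found under its symbol or its RefSeq synonyms and was not analysed here.

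NRF2, the product of Nfe2l2, is a transcription factor of the CNC basic leucine zipper family. In unstressed cells the adaptor KEAP1 hands NRF2 to a CUL3 ubiquitin ligase for degradation. Electrophiles and oxidants modify KEAP1, NRF2 then builds up, pairs with a small MAF protein and binds antioxidant response elements in its target genes. The other members are textbook targets of NRF2 and serve glutathione synthesis (Gclc, Gclm), thiol repair and thioredoxin reduction (Srxn1, Txnrd1), quinone reduction (Nqo1) and heme breakdown (Hmox1). NRF2 is controlled mainly through the stability of its protein, which PRO-seq does not read.

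Transcription was measured with PRO-seq, which maps engaged RNA polymerases by letting them add labelled nucleotides to their nascent RNA. The cells were 1 clonal line of mouse induced pluripotent stem cells with the FUCCI2 cell-cycle reporter, grown on irradiated feeder cells in medium with serum, LIF and inhibitors of MEK and GSK3, which all groups share. Mitotic cells had been held for 6 h with nocodazole at 200 ng/ml, a drug that blocks spindle microtubules, and were collected by shake-off. Other cells collected this way were freed from the drug and sampled 1 h or 3 h later, and asynchronous cells received no drug. The labels list 2 libraries in each of the 4 groups, but the table has 1 combined value per gene and group. The early G1 column was read as the 1 h release and the late G1 column as the 3 h release, by the meaning of their names. No difference below therefore has a replicate check, an SD or a p-value, and the depth behind the values is unknown.

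All 7 genes passed the filter on low values (a mean of at least 0.5 over the 4 columns) and none was listed at 0 in any column. The authors' scaling left the asynchronous column with a median of 9.43, beside 0.489 for mitosis, 11.8 for early G1 and 10.9 for late G1. Of 16 pluripotency markers 15 were in the table, none at 0, with a summed signal of 1842 in asynchronous cells, 1965 in early G1 and 1787 in late G1. Of 29 fibroblast markers of the feeder cells 16 were in the table, with a summed signal of 162 in asynchronous cells, 9.44 in mitosis, 238 in early G1 and 214 in late G1. Twist1 and S100a4 were the 2 feeder markers at 0, both in mitosis. The defining collagen gene Col1a1 had 5.44, 0.0865, 1.97 and 9.37 in the same order of groups.

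Promoter sequence from RefSeq (GRCm38.p6, 250 bases before to 50 after the start) was matched to 5 of the 7 genes: Nfe2l2, Nqo1, Gclm, Srxn1 and Txnrd1. The core of the antioxidant response element, TGACNNNGC, was searched on both strands. It was present in 4 of the 5 windows, against 12.4% of all 32851 promoters. The match in Srxn1 lies after the start, and 3 genes had one before it, against 10.2% of all promoters. These 3 stretches are shown because they hold the letters through which NRF2 is known to bind. Each reads 5′ to 3′ in the direction of the gene, with the match in capitals. In Nfe2l2 the match begins 240 bases before the RefSeq start (chr2:75704880-75704913, minus strand), in Gclm 134 bases before it (chr3:122245408-122245446, plus strand) and in Txnrd1 92 bases before it (chr10:82859099-82859137, plus strand). In Gclm and Txnrd1 the core lies on the opposite strand. The starts listed with the signal lie 174 bases from these RefSeq starts in Nfe2l2, 155 in Gclm and 53 in Txnrd1.
Nfe2l2: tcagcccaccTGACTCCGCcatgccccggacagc
Gclm: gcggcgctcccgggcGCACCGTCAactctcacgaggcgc
Txnrd1: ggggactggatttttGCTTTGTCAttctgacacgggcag

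Srxn1, the member with the largest ratio of late G1 to asynchronous cells below, has 2 matches to the AP-1 motif TGANTCA, which overlaps some forms of the NRF2 site. They begin 102 and 45 bases before its start (chr2:152105412-152105495, plus strand) and are in capitals here.
Srxn1: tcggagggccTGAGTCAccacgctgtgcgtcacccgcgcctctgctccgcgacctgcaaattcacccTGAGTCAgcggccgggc
TGANTCA was in 7.81% of all promoters and in none of the other 4 windows. The second of these matches extends to TGANTCAGC, a form of the NRF2 and small MAF site searched after this promoter had been seen, which 1.19% of promoters held. No match to any of these motifs was in the window of Nqo1. A match is only a description of the letters. The Gclm window was the richest in CG steps of the 5, with 48, and that of Nqo1 the poorest, with 5, against a median of 7 over all promoters.

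**Figure D1:**
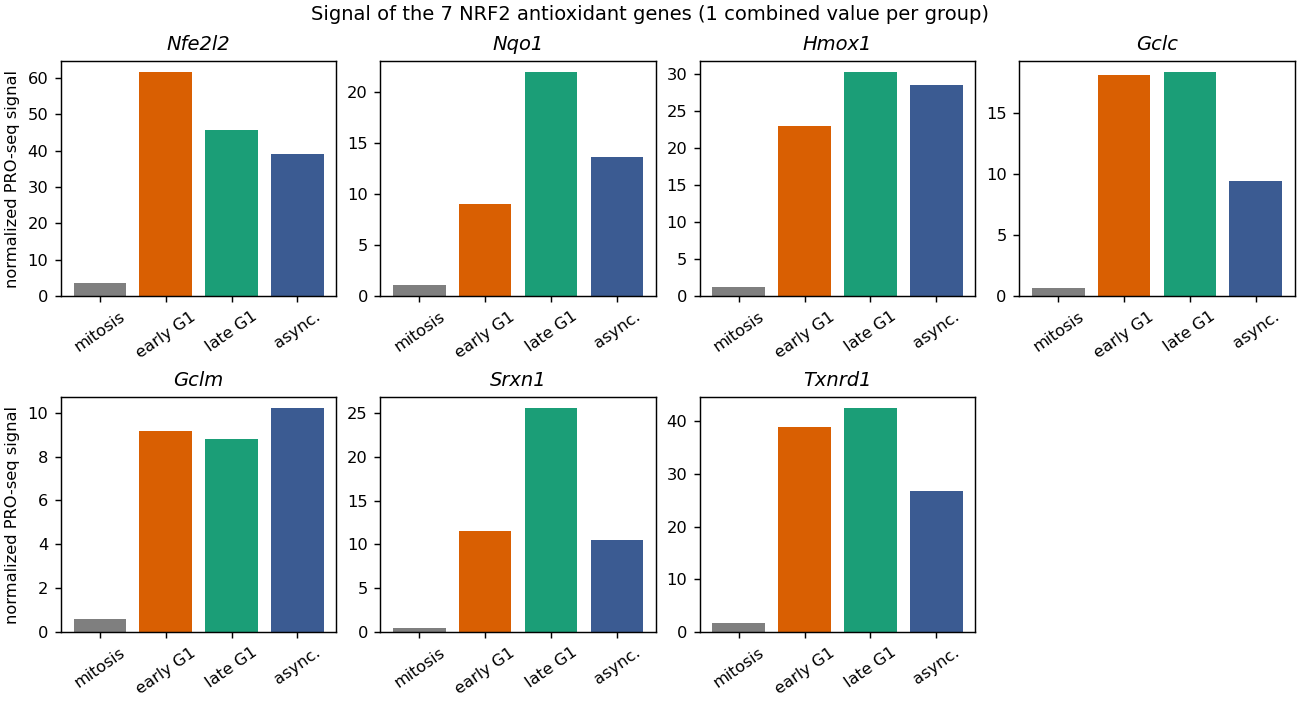
Bars give the authors' normalized PRO-seq signal of each of the 7 genes in mitotic, early G1, late G1 and asynchronous (async.) cells, 1 combined value per bar and no error, with a separate axis from 0 for each gene. Every gene is lowest in mitosis, and 5 of the 7 (Nqo1, Hmox1, Gclc, Srxn1 and Txnrd1) are highest in late G1.

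The regulator itself, Nfe2l2, starts at chromosome 2 position 75704489 on the minus strand (GRCm38), 174 bases inside the RefSeq start. Its signal was 3.57 in mitosis, 61.6 at early G1, 45.7 at late G1 and 39.0 in the asynchronous culture. The order of the groups was thus early G1, late G1, asynchronous and mitosis, an order that 28.3% of genes share. Early G1 stood at 158% of the asynchronous signal and late G1 at 117%, and neither difference reached 2-fold. In mitosis Nfe2l2 kept 9.16% of its asynchronous signal, the largest share of the 7.

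The genes of glutathione synthesis differed from each other. Gclc encodes the catalytic subunit of glutamate-cysteine ligase, the rate-limiting enzyme of glutathione synthesis (chromosome 9, start at 77754535). It had 0.676 in mitosis, 18.1 at early G1, 18.4 at late G1 and 9.47 in the asynchronous culture. Both G1 groups were near 190% of the asynchronous signal (191% and 194%), just inside the 2-fold limit used for calls. Gclm encodes the modifier subunit of the same enzyme (chromosome 3, start at 122245712). Its signal was 0.580, 9.17, 8.79 and 10.2 in the same order of groups, with early G1 at 89.9% and late G1 at 86.2% of the asynchronous signal. Gclm was the only one of the 7 with its highest value in asynchronous cells. The noncoding gene Gm46822 overlaps the region within 1000 bp of the Gclm start, and no source used here says whether counting used strand, so part of this signal cannot be assigned with certainty.

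The thiol genes were both above the asynchronous level in late G1. Srxn1 encodes sulfiredoxin, which reduces overoxidized peroxiredoxins (chromosome 2, start at 152105516). It had 0.485 in mitosis, 11.5 at early G1, 25.5 at late G1 and 10.4 in the asynchronous culture. Early G1 and asynchronous cells were close, and late G1 alone stood out, at 244% of the asynchronous signal. Txnrd1 encodes cytosolic thioredoxin reductase (chromosome 10, start at 82859259). Its signal was 1.73 in mitosis, 38.9 at early G1, 42.4 at late G1 and 26.8 in the asynchronous culture. The early and late G1 values of Txnrd1 stood at 145% and 158% of the asynchronous one. The noncoding gene Gm38560 lies within 1000 bp of this start.

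Of the 7 genes, Nqo1 and Hmox1 had the lowest early G1 signal relative to asynchronous cells. Nqo1 encodes a quinone reductase that uses NADH or NADPH (chromosome 8, start at 107403206, minus strand). Nqo1 gave 1.12 in mitosis, 9.05 at early G1, 21.9 at late G1 and 13.6 in the asynchronous culture. Early G1 was therefore at 66.5% of the asynchronous signal and late G1 at 161%. Hmox1 encodes the inducible heme oxygenase (chromosome 8, start at 75093621). Its values were 1.17, 22.9, 30.2 and 28.4, with early G1 at 80.6% and late G1 at 106% of the asynchronous signal. The difference between late G1 and asynchronous cells in Hmox1 is small enough to change sign with the scaling, to a log2 ratio of -0.12 with equal column medians, from 0.08. Nqo1 and Hmox1 share the order late G1, asynchronous, early G1, mitosis, which 14.4% of genes have.

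The first comparison asks how much transcription of these genes persisted in mitosis. Ratios here and below are of (signal + 0.1) on the log2 scale, and a gene was called at 2-fold or more. All 7 were at least 2-fold lower than in asynchronous cells, as were 99.1% of the 14444 genes compared, so the count tells nothing about the members. No member was at least 2-fold higher (0.0208% of genes). The share of the asynchronous signal that remained ran from 4.11% in Hmox1 to 9.16% in Nfe2l2, with a median of 6.48%, beside 5.36% for the median gene. Relative to the median gene the members ran from -0.60 (Hmox1) to 0.48 (Nfe2l2), and their median lay at 0.02. The latter depends on the added constant: it was 0.21 with 0.02 added in place of 0.1, and -0.07 with 0.5. None was 2-fold above the median gene (11.7% of genes were) or 2-fold below it (6.29%). This fall rests on the authors' scaling of the mitotic column. With equal column medians 5 of the 7 ratios were above 0 and none reached 2-fold. The median gene then lay at 0.05, and 9.59% of genes were at least 2-fold higher and 6.99% lower.

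The return of transcription was read from mitosis to the 1 h release. All 7 passed 2-fold upward in early G1, as did 99.3% of the 14456 genes compared, and none was 2-fold lower (0.00692% of genes). Plain ratios of the signals ran from 8.09-fold in Nqo1 to 26.8-fold in Gclc. Nfe2l2 was 17.2-fold higher and Srxn1 23.8-fold. Nqo1 stood apart from the other members, at -1.30 relative to the median gene in log2 units, where 17.3% of genes lay at least 2-fold below. The other 6 lay between -0.44 and 0.34, and none was 2-fold above the median gene (5.04% of genes were). Rescaling to equal medians or by quantiles removes the general rise, and 6 of the 7 ratios were then below 0. The median gene lay at -0.07 with equal medians and at 0.02 with quantile normalization.

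**Figure D2:**
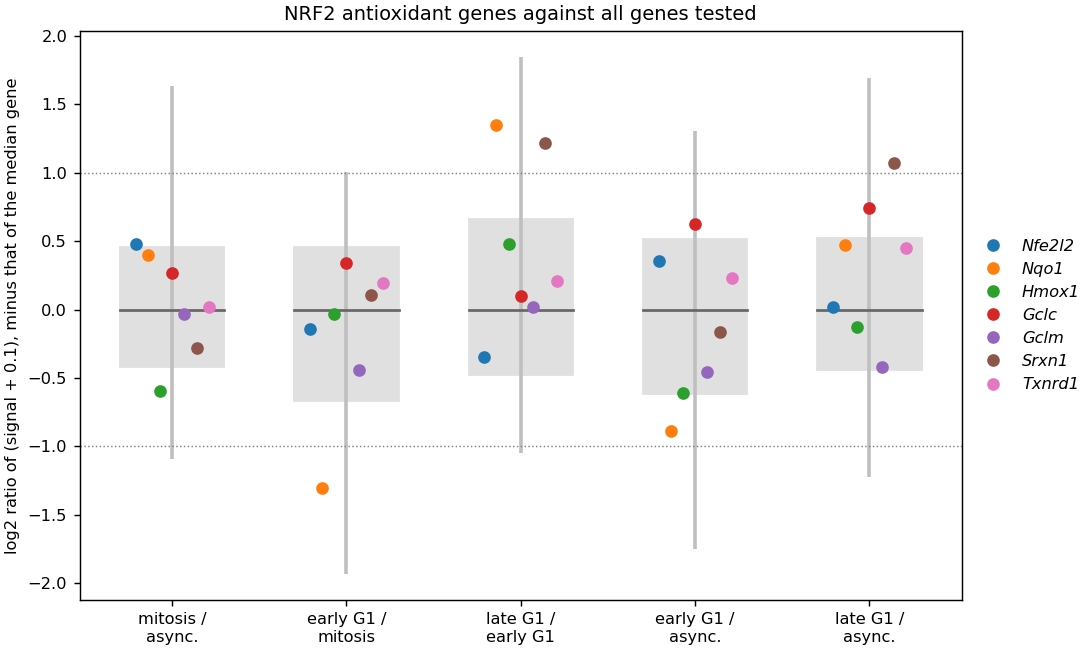
Points give each gene's log2 ratio of (signal + 0.1) in the 5 comparisons after subtraction of the median gene's. Grey boxes span the middle 50% of all genes tested, with the median gene as a line at 0 and grey bars from the 5th to the 95th percentile, and dotted lines mark 2-fold. Nqo1 lies 1.30 below the median gene from mitosis to early G1 and 1.35 above it from early to late G1.

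Between early and late G1 the members parted. Nqo1 and Srxn1 were 2.42-fold and 2.21-fold higher in late G1, and these 2 of 7 passed the 2-fold limit, as did 15.1% of the 14699 genes compared. No member was at least 2-fold lower (7.52% of genes were). The log2 ratio was 1.27 for Nqo1, above that of 89.4% of genes, and 1.14 for Srxn1, above that of 87.3%. Both stayed past 2-fold in every setting tried, with lowest values of 1.23 and 1.11. Hmox1 was 1.32-fold higher. Gclc, Gclm and Txnrd1 stayed within 10% of their early G1 signal, with ratios of late to early G1 of 1.01, 0.958 and 1.09, and Gclm turned from a log2 ratio of -0.06 to 0.06 with equal medians. Nfe2l2 went the other way, with a ratio of 0.741. The median of the members lay 0.21 above the median gene.

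Part of the feeder markers were higher in late G1 together with Nqo1 and Srxn1. Among the 16 measured, 8 were at least 2-fold higher in late than in early G1 and none lower, beside 15.1% and 7.52% of genes. Their median lay 0.92 above the median gene, and 0.59 above it over the 9 with a mean signal of at least 2.5. With quantile normalization it lay 0.37 above the median gene, and 5 markers were higher and 2 lower, beside 10.8% and 8.21% of genes. Single markers differed: Col1a1 went from 1.97 to 9.37 and Snai2 from 1.02 to 5.64, while Fn1 went from 106 to 61.3 and Vim from 14.8 to 9.79. The summed signal of the list was lower in late than in early G1 (214 and 238). Both G1 groups came from mitotic shake-off of cultures on irradiated feeders. The part of feeder cells in the rise of Nqo1 and Srxn1 was not tested. Here and elsewhere in a population of cells, more cells of a type and more transcription per cell cannot be told apart.

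**Figure D3:**
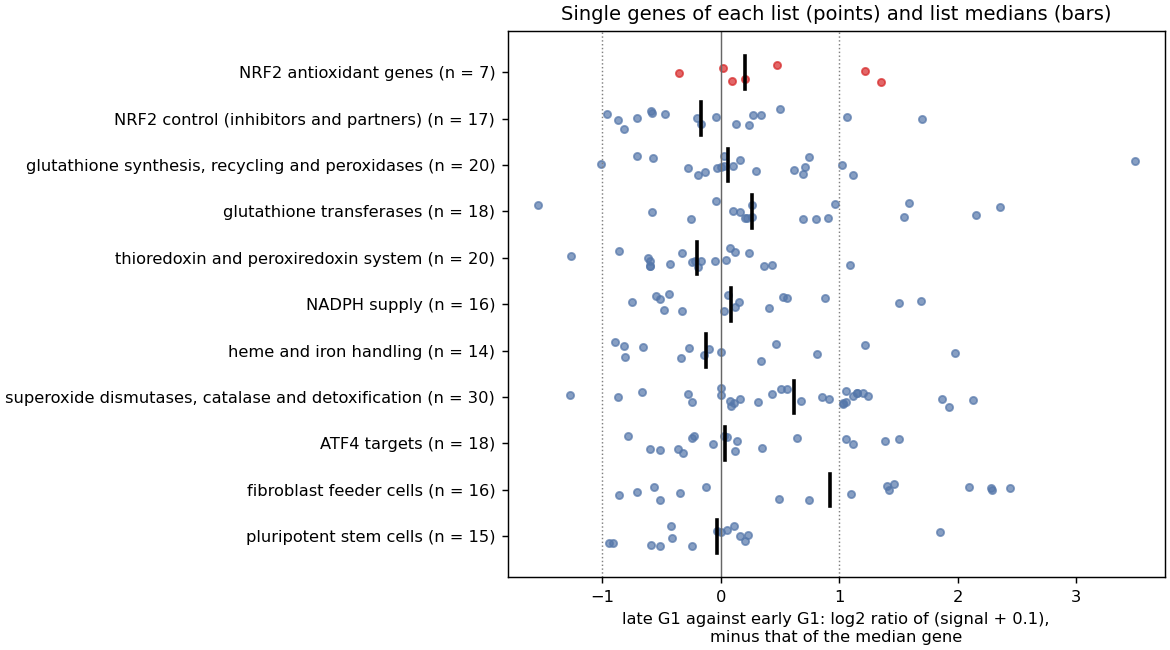
Each point is 1 gene's log2 ratio of (signal + 0.1) in late against early G1 after subtraction of the median gene's, in the NRF2 antioxidant genes (red) and the other lists (blue). Black bars are list medians, dotted lines mark 2-fold, and points are shifted up or down at random to keep them apart. Nqo1 and Srxn1 are the 2 red points past the right dotted line, and the medians of the feeder markers (0.92) and of the detoxification genes (0.62) lie farthest to the right.

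Against asynchronous cells the released cells gave no member past 2-fold in early G1, in either direction. Of 14661 genes 17.7% passed 2-fold upward and 9.53% downward, shares that become 8.70% and 14.9% with equal medians and 9.32% and 11.2% with quantile normalization. By any amount, 4 of the 7 were higher in early G1 (Nfe2l2, Gclc, Srxn1 and Txnrd1), beside 63.7% of all genes. Srxn1 is on that side only with the authors' scaling, since its log2 ratio of 0.14 turned to -0.18 with equal medians. Gclc was highest, at 0.93, and Nqo1 lowest, at -0.58, below which lay 17.2% of genes. The median of the members lay at -0.16 relative to the median gene.

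In late G1 Srxn1 alone passed 2-fold against asynchronous cells, with a log2 ratio of 1.28 that was above that of 88.4% of genes. This 1 of 7 compares with 16.9% of the 14695 genes tested, a share near that of the members. None was at least 2-fold lower (5.14% of genes were). These 2 percentages were 13.0% and 7.86% with equal medians and 11.1% and 9.98% with quantile normalization, and Srxn1 kept a log2 ratio of at least 1.08 in all settings. By any amount 6 of the 7 were higher, beside 62.4% of all genes. With either rescaling 5 of 7 were higher, but the 62.4% does not apply there. The median log2 ratio of all genes was then 0.01 with equal medians and -0.04 with quantile normalization, in place of 0.21. Gclc followed at 0.95, Nqo1 at 0.68, Txnrd1 at 0.66, Nfe2l2 at 0.23 and Hmox1 at 0.08, while Gclm was the lower one, at -0.21. The members' median was 1.58-fold above the asynchronous level, and that of all genes 1.16-fold, a difference of 0.45 on the log2 scale. The 4 genes above the asynchronous level at both times (Nfe2l2, Gclc, Srxn1 and Txnrd1) compare with 48% of 14631 genes. Both G1 comparisons share the asynchronous column.

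**Figure D4:**
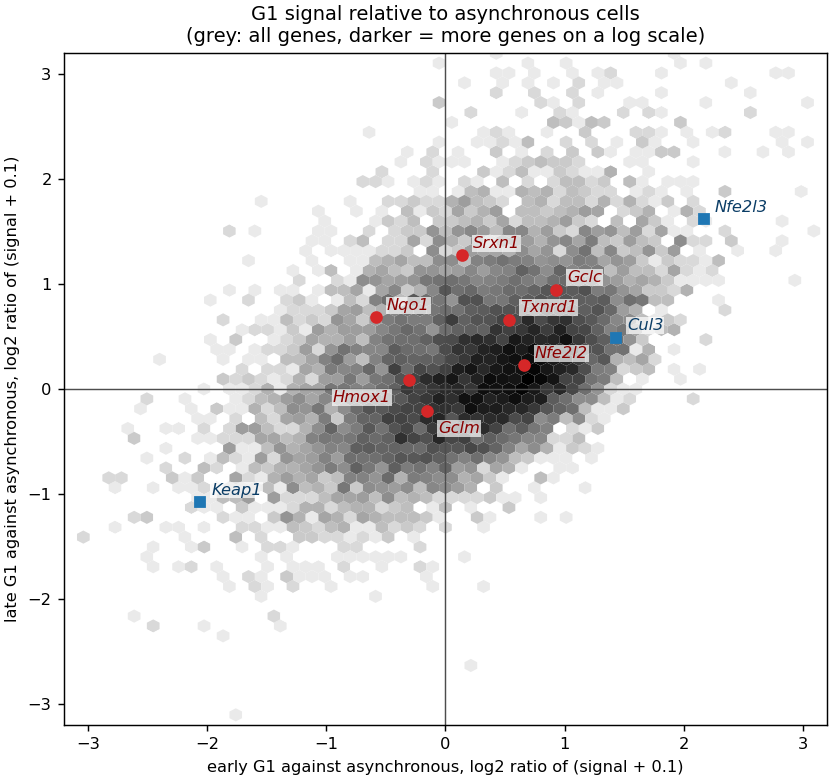
The axes give the log2 ratio of (signal + 0.1) to asynchronous cells in early G1 (horizontal) and late G1 (vertical), for the 7 genes (red circles), 3 genes around NRF2 (blue squares) and all genes (grey hexagons, darker for more genes on a log scale). Both axes stop at 3.2 on either side of 0, which leaves 229 of 14631 genes outside the plot. Keap1 lies at the lower left (-2.06 and -1.07), and Srxn1 is the one red point past 1 on the vertical axis.

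The highest column over all 4 groups was late G1 in 5 of the 7 genes (Nqo1, Hmox1, Gclc, Srxn1 and Txnrd1), beside 33.9% of genes. It was early G1 in Nfe2l2 (44.2% of genes) and the asynchronous column in Gclm (21.8%). The highest column rests on the authors' scaling. With equal medians Nfe2l2, Nqo1 and Gclm were highest in mitosis, at log2 ratios of 0.82, 0.66 and 0.13 to asynchronous cells. Nqo1 then had 0.48 in late G1, and Hmox1 was highest in asynchronous cells. Gclc, Srxn1 and Txnrd1 kept their highest value in late G1. The authors' deposited table sorts genes into 4 temporal classes, by a method that no source used here describes. Hmox1, Gclm and Txnrd1 were in the class named Early_Plateau, which holds 26.3% of genes, Nfe2l2 and Gclc in Early_Spike (33.6%), and Nqo1 and Srxn1 in Transient (24.7%). No member was in Gradual (15.4%). The class named Transient had median signals of 107% of asynchronous in early G1 and 210% in late G1. Nqo1, with 66.5% and 161%, and Srxn1, with 110% and 244%, share its higher value in late G1.

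By the distance between their 3 log2 ratios to asynchronous cells, the genes most like Nfe2l2 were Zfp36l1 (distance 0.080), Fam8a1 (0.091) and Pwp1 (0.098). The search covered 7022 genes whose mean signal reached the median, leaving out predicted or clone names and genes at 0 in any column. Zfp36l1, which encodes an RNA-binding protein of mRNA decay and has Gm52006 within 1000 bp of its start, had 6.36, 107, 75.3 and 67.9 in mitosis, early G1, late G1 and asynchronous cells. None of these 3 was among the 3 nearest with a pseudocount of 0.5. The nearest other member to Nfe2l2 was Txnrd1, at 0.64, and Gclc and Txnrd1 were the closest members to each other, at 0.55. Nqo1 lay farthest from all others, with its nearest member, Gclm, at 1.08.

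The counts of the gene lists that follow stand beside the shares of all genes at least 2-fold above and below asynchronous. These shares were 17.7% and 9.53% in early G1, and 16.9% and 5.14% in late G1. With equal medians they were 8.70% and 14.9% in early G1, and 13.0% and 7.86% in late G1. With quantile normalization they were 9.32% and 11.2%, then 11.1% and 9.98%. Most early G1 counts move with the scaling, and the early G1 counts under a rescaling are given where it moves them. The genes that control NRF2 were given by a list of 17, all in the table. Relative to asynchronous cells 3 were at least 2-fold higher and 1 lower in early G1, and 1 higher and 1 lower in late G1. With equal medians 3 were higher and 3 lower in early G1, and 1 higher and 2 lower in late G1. The lower gene at both times was Keap1 (chromosome 9, start at 21238813). Keap1 had 2.06 in mitosis, 14.0 at early G1, 27.7 at late G1 and 58.4 in the asynchronous culture, so that early G1 reached 23.9% and late G1 47.4% of the asynchronous signal. Cul3, the scaffold of the ligase that KEAP1 serves, had 0.486, 23.4, 12.1 and 8.61 in that order of groups, and was 272% of asynchronous in early G1. The noncoding gene Gm39667 lies within 1000 bp of the Cul3 start, and predicted or antisense genes lie as near to the starts of Mafg, Gss, Gsr, Txn1, Gpx7 and Gsto1. Keap1 and Cul3 thus lay on opposite sides of the asynchronous level in early G1.

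The NRF2 relatives on that list also differed. Nfe2l3 had 3.52 in mitosis, 147 at early G1, 100.3 at late G1 and 32.5 in the asynchronous culture, which put early G1 at 451% and late G1 at 308% of the asynchronous signal. Nfe2l1, which encodes a relative known for control of proteasome genes, had 2.90, 56.5, 35.9 and 66.3. Among the small MAF partners, Mafk stood at 161%, Maff at 172% and Mafg at 68.2% of the asynchronous signal in late G1. Bach1, a heme-sensing repressor of the same sites, stood at 113% in early and 117% in late G1. None of these MAF and BACH1 differences reached 2-fold.

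The wider glutathione genes had a median of -0.29 relative to the median gene in early G1 against asynchronous cells, and of 0.10 in late G1. Of the 20 genes of glutathione synthesis, recycling and peroxidases in the table, 1 was at least 2-fold higher and 3 lower than asynchronous in early G1, and 1 higher and 2 lower in late G1. Gss, the second enzyme of glutathione synthesis, had 27.9 at early G1, 23.2 at late G1 and 19.5 in the asynchronous culture. Gsr, which reduces oxidized glutathione, had 14.7, 21.3 and 15.8. Glrx3, a glutaredoxin gene, was the one higher gene in late G1 (78.0 and 30.8 in asynchronous cells), and Gpx7 and Chac1 were the lower ones (8.25 and 38.8, 6.58 and 30.4). Chac1 encodes an enzyme that breaks glutathione down.

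Of the 18 glutathione transferase genes in the table, 5 were at least 2-fold higher and 4 lower in early G1, and 5 higher and none lower in late G1. These counts were 4 and 5 in early G1 and 4 and 0 in late G1 with equal medians, and 3 and 5, then 3 and 0, with quantile normalization. In mitosis 15 of the 16 with a measured ratio were at least 2-fold lower. Gstp3, the exception, had 17.9 in mitosis, 53.7 at early G1, 95.1 at late G1 and 17.5 in the asynchronous culture. Gsto1 had 85.5 at late G1 beside 21.9 in the asynchronous culture. Gsto2 had 12.1 and 3.56, and lies within 1000 bp of Gsto1 in the RefSeq annotation. Members of this family have near-identical copies among which reads may be split.

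The thioredoxin and peroxiredoxin list, 20 genes all in the table, had 4 at least 2-fold higher and none lower than asynchronous in early G1, and 2 higher and 1 lower in late G1. The early G1 count rests on the authors' scaling, since it was 1 higher and 1 lower with equal medians and 2 and 1 with quantile normalization. Txn1, the substrate of TXNRD1, had 37.9 at early G1, 30.9 at late G1 and 39.3 in the asynchronous culture. Prdx2, a peroxiredoxin gene, was the lower one in late G1 (14.8 and 38.2), with Rnaseh2a starting within 1000 bp. Txnl1, one of the higher genes, had 27.1 and 10.6.

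Genes that supply NADPH, the reductant for these enzymes, gave 3 of 16 at least 2-fold higher and 2 lower in early G1, and 2 higher and 1 lower in late G1. In early G1 the balance turned to 1 higher and 4 lower with either rescaling, and in late G1 to 1 and 1 with equal medians and 1 and 2 with quantile normalization. Aldh1l1 had 11.5 at late G1 beside 3.65 in the asynchronous culture, Me2 13.4 and 6.28, and Mthfd2, with Mob1a starting within 1000 bp, 14.9 and 35.7. Heme and iron genes, 14 in the table, had 1 higher and 1 lower in early G1 and none past 2-fold in late G1. The early G1 count was 0 higher and 3 lower with equal medians and 0 and 1 with quantile normalization. Blvra and Blvrb, the biliverdin reductases that act after heme oxygenase, stood at 112% and 86.9% of asynchronous in late G1, and the ferritin light chain gene Ftl1 at 63.1%. Ap4e1 lies within 1000 bp of the start of Blvra, and Sptbn4 of that of Blvrb.

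The detoxification list, with superoxide dismutases and catalase, held 30 genes in the table. Between early and late G1 8 of them were at least 2-fold higher and 1 lower, beside 15.1% and 7.52% of all genes. The number higher ran from 5 to 12 over the settings, and the share of all genes from 10.3% to 17.5%. Ugt1a6b and Ugt1a7c, both among the genes higher, share a start and have near-equal signals, so they are not separate observations. The median of the list lay 0.62 above the median gene, and 0.34 above it with quantile normalization. Relative to asynchronous cells 1 gene of the list was higher and 3 lower in early G1, and 3 higher and 1 lower in late G1. With equal medians these were 0 and 7, then 2 and 1, and with quantile normalization 0 and 4, then 1 and 2. Ephx1, an epoxide hydrolase gene, had 17.6 at early G1, 39.6 at late G1 and 17.1 in the asynchronous culture, the pattern seen in Srxn1. Aldh3a1 had 1.04, 2.24 and 0.788, and Cbr1, a carbonyl reductase gene, 4.70, 1.78 and 7.07.

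ATF4, the factor of the amino acid stress response, shares some targets with NRF2, Slc7a11 among them. Of 18 genes on its list 2 were at least 2-fold higher and 4 lower than asynchronous in early G1, and 1 higher and 6 lower in late G1, with medians of -0.91 and -0.84 relative to the median gene. In early G1 the number lower was 8 with equal medians, beside 1 higher, and 6 with quantile normalization, beside 2 higher. Chac1, Slc3a2, Sesn2 and Mthfd2 of this list also belong to lists above. Chac1 and Mthfd2 thus count as lower, and Sesn2 as higher in early G1, in both places. Slc3a2, which encodes the partner chain of the SLC7A11 transporter, had 72.0 at early G1, 69.5 at late G1 and 112 in the asynchronous culture, and overlaps the RNA host gene Snhg1 within 1000 bp of its start. Atf3 was the higher gene in late G1 (35.4 and 6.12) and Ppp1r15a one of the lower (40.0 and 99.9).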

How the data were processed

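The deposited table gives PRO-seq signal that the authors had normalized, with 1 value per gene and group. The submitters' processing notes name cutadapt, Bowtie2, Picard and SAMtools with GRCm38/mm10. Their versions, the assignment of reads to genes, the scaling and the pooling of libraries are not given in the sources used. The table also holds a temporal class per gene.

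With 1 column for each group no test could be run. In Python 3.11.15 with pandas 2.3.3, log2 ratios of (signal + 0.1) were taken for genes with a mean signal of at least 0.5, which left 14814 of 14861 genes. The pseudocount makes the fold of weak genes too small. Genes listed at 0 in a column were left out of its ratios (431 genes had a 0 somewhere). A call is a ratio of 2-fold or more. Percentages and plain folds carry no pseudocount. The ratio step was tested by putting known folds on genes of the asynchronous column. Only genes above a minimum signal were used, so weak values were not covered.

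The members and the 10 gene lists were chosen with earlier results of these data known. From each list the 3 genes with the largest difference of late G1 from asynchronous cells, in either direction, and direct partners of the members, could be named. The feeder markers Col1a1, Fn1, Vim and S100a4 fall outside that rule and were chosen after their values were seen. Other settings were pseudocounts of 0.02 and 0.5, equal column medians, quantile normalization, no filter, a minimum mean of 2.5, and genes at 0 kept. Promoters are from RefSeq.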

Additional observations from a re-analysis of the deposited data

How the results depend on the processing

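No paired analysis was possible because the table has 1 combined column per group and no column per library, and for the same reason no library could be left out. Pseudocounts, filters and the treatment of zeros moved no member's own ratio across 2-fold and turned the sign of none. The members' median relative to the median gene did turn in the comparisons with mitosis. With a pseudocount of 0.5 it went from 0.02 to -0.07 in mitosis against asynchronous cells, and from -0.03 to 0.25 in early G1 against mitosis. In the latter comparison Nqo1 then had 2.56, beside 3.56 for the median gene. Rescaling the columns changed calls in the comparisons with mitosis, and elsewhere turned only the signs of 3 small ratios: Gclm in late against early G1 (0.06 with equal medians), and Srxn1 in early G1 (-0.18 with both) and Hmox1 in late G1 (-0.12 and -0.09) against asynchronous cells. With equal medians and with quantile normalization alike, 0 members were at least 2-fold lower in mitosis than in asynchronous cells in place of 7, and from mitosis to early G1 0 were at least 2-fold higher in place of 7 and 1 (Nqo1) at least 2-fold lower in place of 0. The reason lies in the rescaling itself, which sets the mitotic column level with the others. Of all genes, 6.99% were at least 2-fold lower in mitosis with equal medians and 6.66% with quantile normalization. From mitosis to early G1 4.92% and 5.50% of all genes were at least 2-fold higher, in that order of settings. The shares lower were 13.8% and 8.92%, so the count of 1 member lower tells little about the members. The log2 ratio of mitotic to asynchronous signal turned to 0.82 and 0.65 (equal medians, then quantiles) for Nfe2l2, 0.66 and 0.61 for Nqo1, 0.46 and 0.45 for Gclc, 0.13 and 0.12 for Gclm, and 0.32 and 0.24 for Txnrd1. That of early G1 to mitosis turned to -0.49 and -0.37 for Nfe2l2, -1.57 and -1.48 for Nqo1, -0.30 and -0.32 for Hmox1, -0.60 and -0.55 for Gclm, -0.022 and -0.017 for Srxn1, and -0.11 and -0.10 for Txnrd1. Hmox1 and Srxn1 stayed lower in mitosis and Gclc stayed higher in early G1, all short of 2-fold. Among comparisons of G1 with asynchronous cells and of late with early G1, no count of called members changed in any setting. With 1 more base (A) required after the core motif, 1 member promoter held a match in place of 4. Of all promoters 3.04% held that longer form, in place of 12.4%. The core motif itself was in 3 when only bases before the start were read.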
